A study of Mus musculus with 3 samples.

Results

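Amino acid transporter genes of the families Slc1, Slc3, Slc7, Slc36, Slc38 and Slc43 were examined in mouse effector memory CD4 T cells. The members were all protein-coding genes of the GENCODE M21 annotation whose symbol begins with Slc1a, Slc3a, Slc7a, Slc36a, Slc38a or Slc43a, which gave 43 of 22028 protein-coding genes and of 55536 annotated genes. The rule uses symbols and no expression values, though it was chosen with earlier results of these data known. Of the members 42 belong to transporter families, and Slc7a6os, which lies beside Slc7a6 and is named after it, was caught by its symbol alone. Slc43a3, a member of its family by sequence, is known to carry purine nucleobases.

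The RNA was polyA-selected and came from 1 biosample of a male adult of the strain B6.SJL-Ptprca Pepcb/BoyJ, aged 5 months, a C57BL/6 line that carries the Ptprca allele of CD45 and the Pepcb allele. The cells were primary and untreated as far as the labels say, with the whole organism given as their source; how they were sorted is not stated in the labels. The labels give its 3 libraries as technical replicates of 1 biosample, so the study forms 1 group and holds no comparison of conditions. Each SD below is the spread between libraries of 1 biosample, and each p-value sets those libraries against counting error.

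Effector memory T cells have met antigen, circulate through tissues and respond quickly when they meet it again. T cells that are called into growth take up glutamine, leucine, arginine and other amino acids, which feed protein synthesis and signal to the kinase complex mTORC1. Carriers of the Slc7 light chain type reach the cell surface as a pair with a heavy chain of the Slc3 family, whereas Slc1, Slc36, Slc38 and Slc43 proteins work without one.

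Library depth was 17474991, 15303615 and 16882311 expected counts on annotated genes in libraries 1, 2 and 3. Library 1 stood apart: Spearman's correlation of TPM (transcripts per 1e+06 transcripts), taken across genes rather than independent replicates, was 0.926 and 0.925 for its pairs with libraries 2 and 3, and 0.990 between libraries 2 and 3. Mitochondrial genes took 0.781% of counts in library 1 against 1.76% and 2.00% in libraries 2 and 3. The label of a helper T cell had its markers, with 8 of 8 alpha-beta T helper genes detected and Cd4 at TPM values of 269, 541 and 523 in libraries 1, 2 and 3. Of the CD8 genes, Cd8a averaged 0.0433 and was not detected, whereas Cd8b1 was detected at 5.65, 8.1 and 10.8 in the same libraries. All 5 effector memory genes and all 4 naive and central memory genes were detected. Of the other markers 1 of 6 B and plasma cell genes, 1 of 5 myeloid, 1 of 3 NK, 1 of 2 CD8, 0 of 3 erythroid and 0 of 4 stromal genes were detected, with Klra8 and Col1a1 among those at 0. Marker levels moved with library 1 as well. The summed alpha-beta T helper level was 14756 in library 1 against 10218 and 10127 in libraries 2 and 3, the effector memory level 1289 against 2023 and 2205, and the naive and central memory level 1272 against 1839.5 and 1764. The summed B and plasma level was 94.5 in library 1 against 54.5 and 56.0. The part of these shifts in the differences between libraries described here was not tested.

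A small set of transporters made up most of the expression of these families. Detection meant reaching a TPM of 1 in every library, which 16 of the 43 members did (37.2%), or 15 of the 42 transporters, against 44.9% of all protein-coding genes and 21.1% of all annotated genes. The detected members had a median TPM of 25.9, against 28.9 for the 9900 detected protein-coding genes. Slc3a2, Slc1a5, Slc38a2 and Slc38a1 together held 81.0% of the summed TPM of all members. That sum was 1486, 1563 and 1439 in libraries 1, 2 and 3.

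**Figure D1:**
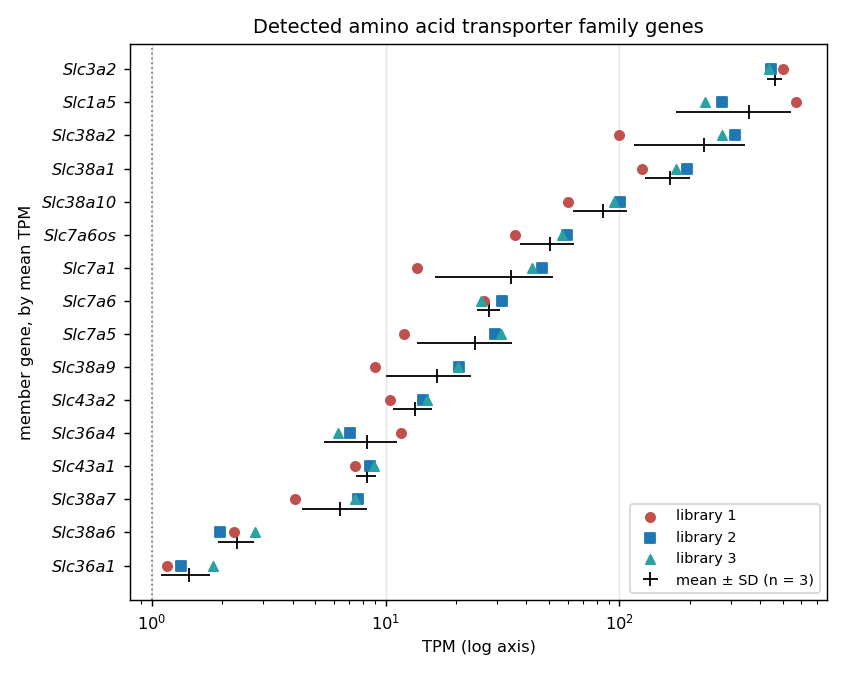
TPM of the 16 detected members on a log axis, ordered by mean, with a symbol for each library and the mean ± SD (n = 3) below it; the dotted line marks a TPM of 1. Slc3a2 led with a mean of 460.5, and for 11 of the 16 genes library 1 had the lowest value, with no count over all genes beside it.

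The heavy chain gene Slc3a2, on chromosome 19 (8706882 to 8723369, minus strand, GRCm38), was the most abundant member. It encodes CD98hc, the heavy chain that carries several Slc7 light chains to the plasma membrane. Its TPM values were 498, 446 and 438 in libraries 1, 2 and 3 (460.5 ± 32.6, SD, n = 3), which placed it at rank 283 among protein-coding genes. The 3 libraries lay close together, with library 1 slightly above the others. That difference passed the chi-square test with Benjamini-Hochberg adjustment over all genes tested (adjusted p = 9.02e-34), whereas libraries 2 and 3 alone did not pass it (adjusted p = 0.261). Slc3a1, the heavy chain rBAT of kidney and intestine, averaged 0.333, and it overlaps the expressed gene Prepl on the opposite strand.

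Of the 6 light chains that pair with Slc3a2, only Slc7a6 and Slc7a5 were detected. Slc7a6, which encodes y+LAT2, an exchanger of cationic against neutral amino acids, stood at a TPM of 26.5, 31.4 and 25.5 in libraries 1, 2 and 3. The difference between its libraries did not pass the threshold (adjusted p = 0.0559, chi-square test with Benjamini-Hochberg adjustment), but did on the separate GENCODE M4 counts (adjusted p = 0.0473, same test). Slc7a5, on chromosome 8 (121881150 to 121907694, minus strand), encodes LAT1, which brings in leucine and other large neutral amino acids. It stood at 12.0, 29.3 and 31.0 in libraries 1, 2 and 3 (24.1 ± 10.5, SD, n = 3), so library 1 lay below both other libraries, which were close together. The chi-square test called this difference (adjusted p = 3.34e-64, Benjamini-Hochberg). Slc7a5 overlaps Gm20388 on the opposite strand, at 14.6, 9.15 and 7.47, so the values of both genes are uncertain where counting did not use strand.

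The order of the 2 light chains depended on the library. Slc7a6 over Slc7a5 was 2.21 in library 1, 1.07 in library 2 and 0.821 in library 3, so their TPM levels overlapped. The other light chains were scarce: Slc7a10, the small neutral amino acid exchanger Asc-1, had 0.89, 1.26 and 0.92, Slc7a7 (y+LAT1) averaged 0.363, Slc7a8 (LAT2) had 1, 6 and 0 counts, and Slc7a11, the cystine and glutamate exchanger xCT, had 0, 4 and 4 counts. Summed over the 6 light chains, TPM came to 39.7, 62.7 and 57.9 in libraries 1, 2 and 3. Slc3a2 was at 12.5 times that sum in library 1, 7.11 times in library 2 and 7.56 times in library 3.

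Glutamine and small neutral amino acid carriers were the next most abundant. Slc1a5, on chromosome 7 (16781340 to 16798274, plus strand), encodes ASCT2, a sodium-dependent exchanger that carries glutamine, serine and alanine. Its TPM values were 567, 273 and 231 in libraries 1, 2 and 3 (357 ± 183, SD, n = 3), and its mean without library 1 was 252. Library 1 was the highest and lay 2.25-fold above the geometric mean of the others, with a chi-square of 5473. Libraries 2 and 3 also differed (adjusted p = 3.94e-11, chi-square test with Benjamini-Hochberg adjustment). Its relative Slc1a4 (ASCT1), an exchanger of alanine, serine and cysteine, stayed at 0.22, 0.53 and 0.56.

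The sodium-coupled carriers of system A went the other way. Slc38a2, on chromosome 15 (96687392 to 96699730, minus strand), encodes SNAT2, which takes up alanine, glutamine and other small neutral amino acids and is known to be induced when amino acids are short. It stood at 99.8, 313 and 275 in libraries 1, 2 and 3 (229 ± 114, SD, n = 3), with a mean of 294 in libraries 2 and 3. Library 1 was at 0.340 of the geometric mean of the others (chi-square 5363), and libraries 2 and 3 differed as well (adjusted p = 2.84e-07, chi-square test with Benjamini-Hochberg adjustment). Its neighbour Slc38a1 (96571418 to 96642913, minus strand), which encodes the glutamine carrier SNAT1, had 124, 194 and 175 (164 ± 36.2, SD, n = 3). It was lowest in library 1 too (adjusted p = 1.91e-157 over 3 libraries and 0.00151 between libraries 2 and 3, chi-square test with Benjamini-Hochberg adjustment). Slc38a2 over Slc38a1 was 0.803 in library 1, 1.61 in library 2 and 1.57 in library 3.

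Other members of this group were nearly silent. Slc38a3, the system N carrier SNAT3 of liver and brain, had 0, 0.76 and 1.28 in libraries 1, 2 and 3. Slc38a4 (SNAT4), known from liver and placenta, had 3 counts in all, and Slc38a5 (SNAT5) had none. The 5 glutamate carriers of the Slc1 family, Slc1a1, Slc1a2, Slc1a3, Slc1a6 and Slc1a7, summed to a TPM of 0.593 ± 0.627 (SD, n = 3), and none was detected.

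The cationic carrier Slc7a1, on chromosome 5 (148327410 to 148399904, minus strand), was the single detected member of its group. It encodes CAT1, which takes up arginine, lysine and ornithine. Its TPM values were 13.6, 46.7 and 42.3 in libraries 1, 2 and 3 (34.2 ± 18.0, SD, n = 3). Library 1 was lower by far and stood at 0.306 of the geometric mean of the others, the lowest such ratio among detected members (adjusted p = 9.22e-121, chi-square test with Benjamini-Hochberg adjustment), while libraries 2 and 3 alone did not pass that test (adjusted p = 0.948). Its relatives were not detected: Slc7a2 (CAT2), an arginine carrier of activated macrophages, had 4 counts in all, Slc7a3 (CAT3) averaged 0.327, Slc7a4 0.347 and Slc7a14 0.0133.

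Carriers of lysosomes and other inner membranes were found at middle to low levels. Slc38a9, on chromosome 13 (112660751 to 112738749, plus strand), encodes a lysosomal carrier that reports arginine to mTORC1. It had 9.03, 20.6 and 20.3 in libraries 1, 2 and 3 (16.65 ± 6.60, SD, n = 3), with library 1 below the others, which nearly coincided (adjusted p = 4.91e-25, chi-square test with Benjamini-Hochberg adjustment). Slc38a7, which encodes SNAT7, a lysosomal exporter of glutamine and asparagine, had 4.10, 7.59 and 7.37. Slc36a1, the proton-coupled exporter PAT1, was the detected member with the lowest mean, at 1.16, 1.34 and 1.82. Slc36a4 (PAT4), a carrier of proline and tryptophan, had 11.6, 7.04 and 6.28 and was, beside Slc1a5 and Slc3a2, the only detected member highest in library 1. These differences passed the chi-square test with Benjamini-Hochberg adjustment (adjusted p = 0.00177 for Slc38a7, 0.0246 for Slc36a1 and 0.00483 for Slc36a4). Slc36a2 and Slc36a3 had 2 and 9 counts in all.

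Slc38a10, on chromosome 11 (120103960 to 120151346, minus strand), was the fifth most abundant member. It belongs to the sodium-coupled family and stood at 60.3, 101 and 94.9 in libraries 1, 2 and 3 (85.3 ± 21.9, SD, n = 3), lowest in library 1 (adjusted p = 2.33e-35, chi-square test with Benjamini-Hochberg adjustment). Slc38a6 (SNAT6) had 2.25, 1.96 and 2.77 and did not pass the same chi-square test (adjusted p = 0.517). Slc38a8 and Slc38a11 had 3 and 7 counts. Both facilitated carriers of large neutral amino acids were detected. Slc43a2 (LAT4) had 10.4, 14.5 and 15.0, and Slc43a1 (LAT3) had 7.38, 8.57 and 8.92 in libraries 1, 2 and 3, with library 1 lowest in each. The first passed the chi-square test with Benjamini-Hochberg adjustment (adjusted p = 3.53e-18) and the second did not (adjusted p = 0.0954). Slc43a3 missed detection with 0.84, 1.07 and 0.84. Slc7a6os, a factor in the nuclear import of RNA polymerase II, had 35.7, 59.8 and 56.6 in libraries 1, 2 and 3 (adjusted p = 2.25e-24, chi-square test with Benjamini-Hochberg adjustment). As with Slc7a5, counted genes overlap Slc38a10 (Gm11769), Slc38a9 (Gm47827) and Slc43a2 (Gm45606) on the opposite strand, at mean TPM values of 2.74, 2.08 and 3.20, so these 3 carry the same uncertainty.

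Judged by the ranges of the libraries, the order of the levels was firm at some steps only. The library ranges of Slc3a2, Slc1a5, Slc38a2 and Slc38a1 overlapped between neighbours, as did those of the 9 genes from Slc7a6os down to Slc38a7. They were apart between Slc38a1 and Slc38a10, between Slc38a10 and Slc7a6os, between Slc38a7 and Slc38a6 and between Slc38a6 and Slc36a1. Compared within each library, Slc7a6os also lay above Slc7a1, Slc7a5 above Slc38a9 and Slc43a1 above Slc38a7 in all 3 libraries, although their ranges overlapped. Without library 1, Slc38a2 moved to rank 2 and Slc1a5 to rank 3, Slc7a5 passed Slc7a6, and Slc36a4 ranked behind Slc43a1 and Slc38a7.

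By transport system, the heavy chains summed to a TPM of 461 ± 32.7, systems A and N to 395 ± 150.5 and the neutral Slc1 exchangers to 358 ± 183 (SD, n = 3). In libraries 1, 2 and 3 systems A and N had 224, 508 and 452, whereas the neutral Slc1 exchangers had 567, 274 and 232. The remaining Slc38 carriers summed to 111 ± 30.6, the light chains of Slc3a2 to 53.4 ± 12.1, the cationic carriers to 34.9 ± 17.9, Slc43 to 22.5 ± 3.38 and Slc36 to 9.96 ± 2.64 (SD, n = 3). The light chains outside the Slc3a2 partners, Slc7a9, Slc7a12, Slc7a13 and Slc7a15, summed to 0.0533 ± 0.0551 (SD, n = 3).

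**Figure D2:**
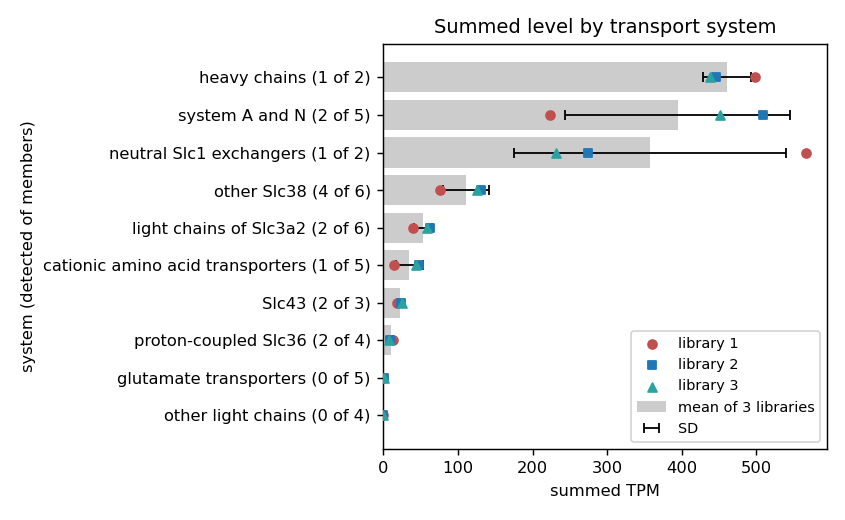
Summed TPM of each transport system, with the number of detected members of all members in brackets; bars give the mean of 3 libraries, lines the SD and symbols the single libraries. Library 1 had 567 for the neutral Slc1 exchangers, above the other libraries, and 224 for systems A and N, below them.

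The 27 members that were not detected were low rather than spread around the threshold. Slc7a10, Slc43a3 and Slc38a3 reached a TPM of 1 in at least 1 library. Another 19 stayed below 1 in every library with 1 to 49 counts in all and means of 0.0133 to 0.437. Slc1a7, Slc7a9, Slc7a12, Slc7a15 and Slc38a5 had no expected count, though a second count table, on GENCODE M4 annotation, gave Slc38a5 1 count in library 3. A count of 0 allows up to 3 counts, which corresponds for these 5 genes to a TPM of 0.116 to 0.276, and this limit covers counting error only. At the threshold, Slc36a1 with a lowest value of 1.16 was just inside and Slc7a10 with 0.89 just outside. In bulk RNA, expression in few cells and little RNA per cell cannot be told apart.

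Differences between the libraries were found among the members at a share near that of all genes. Of the 18 members with at least 30 counts, 13 varied over the libraries by the chi-square test with Benjamini-Hochberg adjustment (72.2%), against 75.8% of 13177 genes. The other 5, Slc7a6, Slc43a1, Slc38a6, Slc43a3 and Slc1a4, did not pass. Libraries 2 and 3 alone differed at 3 of 18 members, Slc1a5, Slc38a2 and Slc38a1, which is 16.7% against 16.7% of all genes. When chi-squares were divided by the median overdispersion of 19.9, Slc1a5, Slc38a2, Slc38a1, Slc7a1 and Slc7a5 were still called, 5 of 18 members against 21.6% of genes.

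Library 1 was the lowest library for 11 of the 16 detected members, the highest for 3 and between the others for 2. The same count over all detected genes is not given here, so these numbers are not read as a trait of the members. The median log2 ratio of its TPM to the geometric mean of the others was -0.54 over the detected members and -0.06 over all detected genes. Members called by the chi-square test, lower in library 1 than in both other libraries and at least 1.5-fold below their geometric mean numbered 7 of 18, against 27.8% of all genes tested. They were Slc7a1, Slc38a2, Slc7a5, Slc38a9, Slc38a7, Slc7a6os and Slc38a10. Those higher in the same way were 2, Slc1a5 and Slc36a4, against 17.4% of all genes. The log2 ratio of Slc36a4 was 0.80 in TPM but 0.42 in TMM-scaled counts, under 1.5-fold. In TMM-scaled counts Slc38a7 at -0.36 and Slc38a10 at -0.38 also fell short of 1.5-fold, and Slc43a2 at -0.83 and Slc36a1 at -0.61 passed it, so that 7 were again lower. By the same rule, in which library 1 enters the geometric mean, library 2 was higher at 3 members (Slc7a1, Slc38a2 and Slc38a9, background 12.7%) and lower at 0 (background 4.02%). Library 3 was higher at 1 member, Slc7a5 (background 9.58%), and lower at 1, Slc1a5 (background 6.1%).

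**Figure D3:**
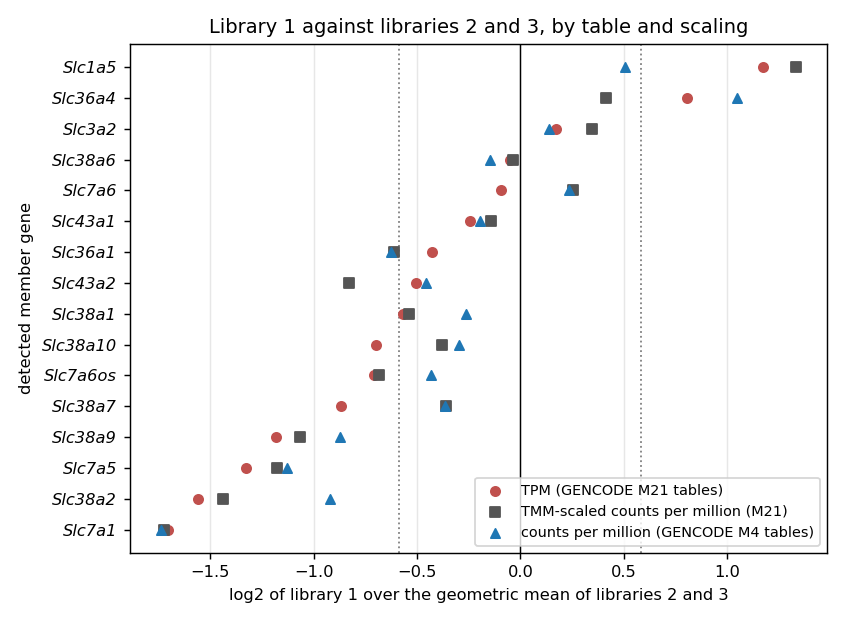
Log2 ratio of library 1 to the geometric mean of libraries 2 and 3 for the 16 detected members, in TPM, in TMM-scaled counts and in depth-scaled counts of the separate GENCODE M4 tables; dotted lines mark 1.5-fold. Slc7a1 had the lowest ratio, near -1.7 by each measure, and Slc7a6 lay on opposite sides of 0, with -0.10 in TPM and 0.25 and 0.24 in the others.

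That second deposited table of GENCODE M4 counts gave library 1 the same direction for 15 of the 16 detected members, all but Slc7a6. Its ratios were smaller for Slc38a2, Slc1a5, Slc38a1, Slc38a9, Slc38a10, Slc38a7 and Slc7a6os, among others, and Slc38a10 at -0.29, Slc38a7 at -0.36 and Slc7a6os at -0.43 were no longer 1.5-fold lower in library 1. Slc38a2 had 1277, 2416 and 2480 such counts in libraries 1, 2 and 3, a log2 ratio of -0.92 for library 1 against -1.56 in TPM. Slc1a5 had 3285, 2366 and 2315, a log2 ratio of 0.51 against 1.17 in TPM, which left it under 1.5-fold. Slc7a1 had 167, 552 and 574, a log2 ratio of -1.74 against -1.71. By these counts, 12 of 19 members with at least 30 counts varied (background 68.4%), 4 were at least 1.5-fold lower in library 1 (background 18.8%) and 1, Slc36a4, was at least 1.5-fold higher (background 20.7%). M4 counts were a smaller share of the M21 counts at abundant genes. For Slc38a2 that share was 25.1%, 18.1% and 18.0% in libraries 1, 2 and 3, for Slc1a5 20.65%, 37.5% and 37.8%, and for Slc38a10 71.9%, 69.9% and 69.5%. When genes were cut into 10 equal bins by counts per kilobase, the median share was 23.3%, 26.6% and 24.9% in the highest bin, against 53.0% to 59.2% in the 7 lowest bins.

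The transcript tables gave most members a leading coding transcript, with Slc1a5 and Slc38a9 as exceptions. The lead changed between libraries in Slc38a1, Slc38a9, Slc36a4 and Slc43a1. In library 1 Slc36a4-202 led Slc36a4 with 58.8% of TPM and Slc43a1-202 led Slc43a1 with 32.4%, whereas other coding transcripts led in libraries 2 and 3. The leading transcript was protein-coding in 14 of 16 detected members, was the same in every library in 12 and held over 50% of the TPM on average in 9. Slc7a5-201 held 94.25% ± 2.05 of Slc7a5, Slc38a2-201 held 87.4% ± 3.08 of Slc38a2 and Slc3a2-201 held 61.2% ± 1.39 of Slc3a2 (SD, n = 3). Of Slc3a2, a further 27.1% ± 1.78 (SD, n = 3) went to the coding transcript Slc3a2-207. Slc7a1-202 led Slc7a1 with 58.8% ± 7.69 of TPM (SD, n = 3), but the longer Slc7a1-201 had 45.8% of its counts, against 39.3% for Slc7a1-202.

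Slc1a5 was led by Slc1a5-202, which the annotation calls a retained-intron transcript and not coding. It held 63.7%, 66.6% and 69.6% of Slc1a5 TPM in libraries 1, 2 and 3, and the coding Slc1a5-201 held 30.3%, 27.1% and 22.0%. The coding share was highest in library 1, in which the gene itself was most abundant. All retained-intron transcripts together reached 72.0% ± 4.37 (SD, n = 3), a share exceeded by 161 of the 6194 detected protein-coding genes that have such a transcript. Slc1a5-202 and Slc1a5-201 share 2736 bases. They differ by 1 intron of 71 bases, kept in Slc1a5-202, and by 28 bases found in Slc1a5-201 only. The intron lies at chr7:16795953-16796023 on the plus strand of GRCm38. It is shown in capitals with 20 bases of exon on either side, taken from the GENCODE M21 transcript Slc1a5-202 (chr7:16795933-16796043), since reads on these bases are what tells the transcripts apart over most of their length.
Slc1a5 intron: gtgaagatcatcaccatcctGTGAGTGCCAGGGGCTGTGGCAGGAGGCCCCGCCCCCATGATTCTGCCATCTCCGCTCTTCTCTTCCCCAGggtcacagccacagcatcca
The intron begins with GT and ends with AG, the usual ends of a spliced intron, and its length is not a multiple of 3. These 71 bases are a small part of the 2807 of Slc1a5-202, and the number of reads that touched the intron or its splice junction was not analysed here.

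Slc38a9 was split among short transcripts. By TPM its coding transcript had 12.8% ± 0.684, retained-intron transcripts 50.8% ± 6.42 and the nonsense-mediated decay transcript Slc38a9-202 28.0% ± 4.75 (SD, n = 3). Slc38a9-202 is 681 bases long, whereas the coding Slc38a9-201 is 8910 bases long and held 53.5% of the expected counts. The share of coding RNA therefore differs with the unit, from 12.8% of molecules to most of the reads. In Slc38a1, retained-intron transcripts held 40.3% ± 1.31 (SD, n = 3), mainly Slc38a1-204, a single exon of 3722 bases that shares 909 bases with the coding Slc38a1-203. By TPM Slc38a1-204 had 32.7%, 34.2% and 32.3% and Slc38a1-203 35.97%, 31.0% and 33.5% in libraries 1, 2 and 3, so the lead changed in library 2, and without library 1 the leading transcript was coding in 13 members.

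Over the 13 detected members with an annotated retained-intron transcript, the median share of that class was 18.6%, against 13.2% over the 6194 detected protein-coding genes with one. It was over 20% in 6 of the 13, against 36.4% of those genes. The median coding share was 81.0% over the 16 detected members and 85.2% over all detected protein-coding genes.

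**Figure D4:**
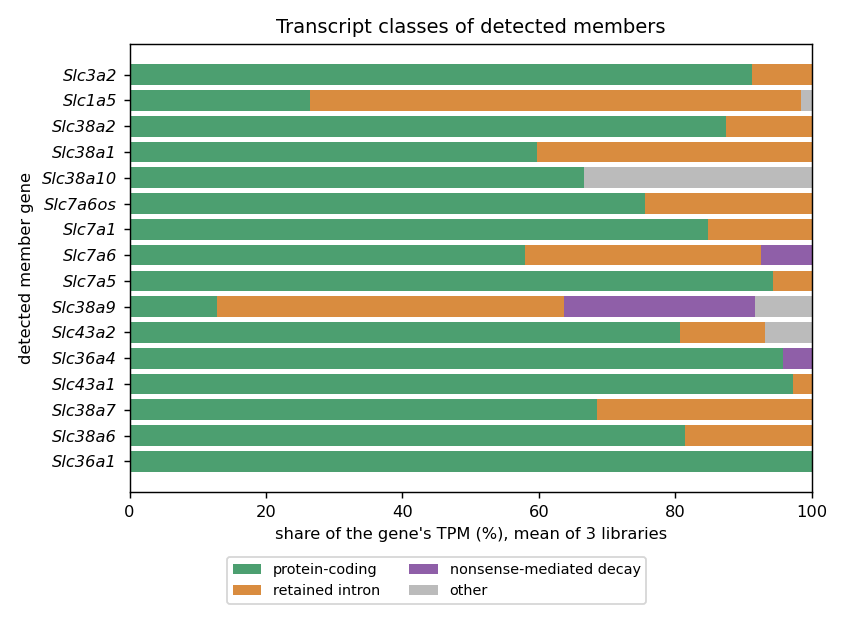
Share of each detected member's TPM by transcript class of the annotation, as the mean of 3 libraries, with genes ordered by level. Slc1a5 with 26.5% and Slc38a9 with 12.8% had the lowest coding shares, and Slc36a1 was coding at 100%.

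The starts of detected members were rich in CG pairs. RefSeq windows of 300 bases on GRCm38.p6, from 250 before to 50 after the start, were matched by symbol for 32 of the 43 members, among them 13 detected ones. The detected members had a median of 26 CG pairs (10 to 41) and the 19 others a median of 7 (1 to 32). Over all protein-coding genes the medians were 22 in 7904 detected genes and 5 in 8618 others, so the same contrast held across the genome. At least 10 pairs were found in 13 of 13 detected members and in 8 of 19 others (42.1%), against 85.8% of all detected genes and 34.4% of the others. Slc38a2, with 41 pairs, and Slc36a3, with 1, show the range, and CG pairs are in capitals in both sequences. Their windows are chr15:96699679-96699978 and chr11:55151659-55151958, each on the minus strand and written 5′ to 3′ along the gene.
Slc38a2: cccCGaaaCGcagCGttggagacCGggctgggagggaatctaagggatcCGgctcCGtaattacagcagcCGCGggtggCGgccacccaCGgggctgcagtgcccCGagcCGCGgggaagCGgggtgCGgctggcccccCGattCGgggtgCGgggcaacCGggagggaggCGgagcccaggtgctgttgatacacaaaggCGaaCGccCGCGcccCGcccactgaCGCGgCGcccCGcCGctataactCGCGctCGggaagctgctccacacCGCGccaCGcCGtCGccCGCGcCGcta
Slc36a3: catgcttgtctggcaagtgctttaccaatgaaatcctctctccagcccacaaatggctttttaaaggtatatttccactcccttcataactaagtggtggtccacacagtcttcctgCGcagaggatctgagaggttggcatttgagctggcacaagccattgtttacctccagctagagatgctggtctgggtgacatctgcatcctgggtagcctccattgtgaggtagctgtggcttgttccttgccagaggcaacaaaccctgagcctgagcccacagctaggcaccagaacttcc

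**Figure D5:**
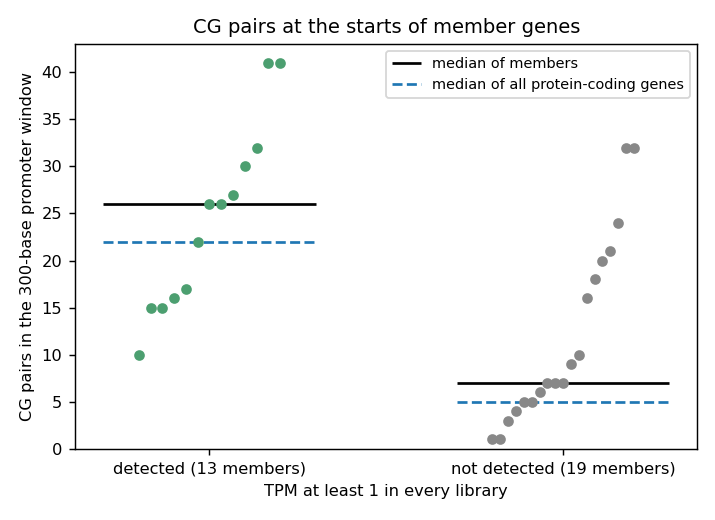
CG pairs in the 300-base promoter window of 13 detected members and 19 members that were not detected, with a point per gene, the median of each set as a solid line and the median of all protein-coding genes of that kind as a dashed line. The detected members had at least 10 pairs each, and the others ran from 1 to 32.

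Among the motifs searched on both strands was TGATGNAA, the core of the element bound by ATF4 with a C/EBP partner. It was present in 0 of 13 detected members and in 3 of 19 others, Slc7a11, Slc7a7 and Slc1a4. Over all 16522 windows its share was 3.52%, with 2.19% in detected genes and 4.75% in the others. CACGTG, the E-box bound by MYC and by TFEB, was present in 3 of 13 detected members, Slc43a1, Slc38a7 and Slc36a1, and in 4 of 19 others. Over all windows its share was 8.12%, with 10.8% in detected genes and 5.65% in the others. CACGTG reads the same on both strands, neither motif contains the other, and a match or its absence in these windows describes letters only. Slc7a11, known as a target of ATF4 and NRF2, carries the first motif on both strands, and its window (chr3:50443564-50443863, minus strand) is shown with the motif in capitals, the second copy as its reverse complement. Windows for Slc1a5, Slc38a1 and Slc7a5 were not in the table.
Slc7a11: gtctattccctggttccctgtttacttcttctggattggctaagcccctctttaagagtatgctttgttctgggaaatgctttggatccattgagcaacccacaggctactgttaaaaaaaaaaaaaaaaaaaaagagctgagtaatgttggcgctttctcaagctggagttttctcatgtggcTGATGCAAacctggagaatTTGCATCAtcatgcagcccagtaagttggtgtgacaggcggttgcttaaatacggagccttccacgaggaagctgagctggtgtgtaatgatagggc

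In each of 6 lists of related genes, compared without a test, the share detected was above the 37.2% of the members. Over all protein-coding genes it was 44.9%. The lists were written with results of these data known, whereas the members are every protein-coding gene that matched by symbol. The shares are therefore not alike in kind, and nothing is concluded from their difference. All 20 cytosolic aminoacyl-tRNA synthetases, which load amino acids onto tRNA, were detected, with a median TPM of 51.3. Their 3 highest were Eprs at 845, 389 and 370 in libraries 1, 2 and 3, Nars at 293, 117 and 103, and Vars at 67.0, 169 and 146. Of the synthetases tested 17 of 20 varied between libraries, 6 of them at least 1.5-fold higher in library 1 and 1 lower. Over all genes tested, to be read beside the counts of this and the other lists, 75.8% varied, 17.4% were higher and 27.8% lower in library 1 by the same rule.

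Of 33 genes of amino acid sensing by mTORC1, 30 were detected. The median over the whole list, undetected genes included, was 23.4. Rheb, the GTPase that activates mTORC1, had 698, 293 and 319.5 in libraries 1, 2 and 3, Lamtor2, a Ragulator subunit on lysosomes, 236, 82.1 and 91.7, and Sec13, a subunit of GATOR2, 144, 104 and 99.5. All 3 were highest in library 1. Of the 33 genes 25 varied (75.8% of all genes did), 7 higher and 8 lower in library 1 by at least 1.5-fold (17.4% and 27.8% of all genes).

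In the amino acid response list 17 of 24 genes were detected. The median over the whole list, undetected genes included, was 17.0. Atf4, the factor that this response acts through, had 54.5, 245 and 263 in libraries 1, 2 and 3, Cebpb 183, 132 and 125, and Atf3 41.4, 69.4 and 68.0. Atf4, Atf3 and Eif2ak4, the last at 3.37, 10.1 and 8.84, were lower in library 1 by at least 1.5-fold. Asns, the asparagine synthetase gene, had 16.25, 17.5 and 17.45 and Mthfd2, a mitochondrial folate enzyme gene, 56.1, 52.5 and 51.2 in the same libraries. Of 18 tested genes of the list 10 varied, against 75.8% of all genes, 1 of them at least 1.5-fold higher and 3 lower in library 1, against 17.4% and 27.8%.

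Of 28 enzymes of glutamine, branched-chain amino acid, arginine and glutathione metabolism, 22 were detected. The median over the whole list, undetected genes included, was 36.4. Odc1, which makes polyamines from ornithine, had 812, 2674 and 2674 in libraries 1, 2 and 3, and the aspartate transaminase gene Got1 had 441, 573 and 539.5. Here 18 of 23 tested genes varied, beside 75.8% of all genes, 5 higher and 5 lower in library 1 by at least 1.5-fold, beside 17.4% and 27.8%. Bcat1, Pycr1, Gpt2, Arg1, Arg2 and Aspg were not detected.

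Carriers of amino acids in other families were detected in 15 of 26 cases, with a median over the list of 5.36. Slc6a6, the taurine carrier, had 77.8, 73.3 and 76.2 in libraries 1, 2 and 3, Sfxn3, a mitochondrial serine carrier, 61.6, 45.6 and 41.9, and Slc25a12, the mitochondrial aspartate and glutamate carrier, 31.5, 63.55 and 50.65. Of 16 tested carriers 13 varied (75.8% of all genes), 3 higher and 3 lower in library 1 (17.4% and 27.8%). Of 15 regulators known to act on transporter genes or proteins, 12 were detected, all but Mitf, March1 and Mycn. The median over the whole list, undetected genes included, was 30.6. Tsc22d3 had 738, 587 and 502 in libraries 1, 2 and 3, Hif1a 452, 513 and 438, and Txnip 52.95, 352 and 316. Of these regulators 11 of 13 tested varied, against 75.8% of all genes. In library 1, 0 were higher and 3 lower, against 17.4% and 27.8% of all genes.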

How the data were processed

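PolyA RNA-seq tables of 3 libraries from 1 biosample were used. Per the deposited README files, the gene and transcript tables are on mm10 with GENCODE M21 annotation, one library each; no source used here names the aligner, the quantifier or the use of strand. Expected counts in the deposited tables are estimates, with reads shared among matching transcripts. The deposited TPM and FPKM values were scaled within each library by the authors. Transcript shares of a gene's TPM are deposited in percent. A deposited score, the posterior SD of the count, was at most 2.33% of the count in detected members. A further table deposited by the authors holds whole-number counts on GENCODE M4, of which 22195 of 22457 genes were found in the annotation, with totals of 5104745, 5047736 and 5278506.

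Symbols, classes and coordinates came from GENCODE M21. Rows outside annotated genes (0.304%, 0.298% and 0.226% of expected counts in libraries 1, 2 and 3) were left out. Expected counts were rounded, and genes with at least 30 in total were tested for homogeneity over libraries with Pearson's chi-square test, Benjamini-Hochberg adjusted over all genes tested, with a threshold of 0.05. No quasi-likelihood test was run, since there is 1 group. Where a library was set 1.5-fold above or below the others, it had to lie beyond both in TPM. TMM factors came from edgeR 4.0.16 and size factors from DESeq2 1.42.0 in R 4.3.3; the rest was computed in Python 3.11.15 with pandas 2.3.3, scipy 1.17.1 and numpy 2.4.6. Ddit3 has more than 1 annotated ID, and the one with the highest mean was used. Values are printed for every detected member, for members reaching a TPM of 1 in any library, and for the 3 highest genes of each other list, except for genes not reported here; others are summarised, and further values of single genes were added after their values were seen. Members, lists and tests were chosen with earlier results of these data known. Intervals and limits cover counting error only, since the tables carry no molecular identifiers.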

Additional observations from a re-analysis of the deposited data

How the results depend on the processing

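The tables limit these results in a few ways: 1 biosample, no stated strand, and transcript shares that rest on few distinguishing reads. No paired analysis was possible because the libraries form 1 group. The count of detected members was 13 to 18 under the other thresholds and 16 without any 1 library. The number of varying members was 5 with the chi-square divided by the overdispersion, and 3 to 14 when 1 library was left out, the lowest without library 1. Members at least 1.5-fold higher in library 1 numbered 1 with TMM-scaled counts, 1 at a fold of 2 and 1 with M4 counts, and those lower numbered 4 at a fold of 2 and 4 with M4 counts. For library 2, 1 was higher with TMM-scaled counts, 7 at a fold of 1.2, 0 at a fold of 2 and 1 with M4 counts. For library 3, 3 were higher with TMM-scaled counts, 3 at a fold of 1.2 and 0 at a fold of 2, and 2 and 0 were lower at folds of 1.2 and 2. Slc7a6 turned its sign, with log2 ratios of 0.25 (TMM) and 0.24 (M4). TPM rescaled over protein-coding genes without mitochondrial and ribosomal protein genes gave 1893 for the summed members, 581 for heavy chains, 142 for other Slc38, 68.2 for light chains and 28.7 for Slc43; leaving these genes out raises each value by construction. For other changes the cause was not tested. Slc38a7 and Slc36a1 missed the threshold on M4 counts, and Slc7a6 passed it. The M4 tables and the count without Slc7a6os were added after the data were seen.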
